A study of Mus musculus with 26 samples.

Results

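The genes described here are 10 that mark naive pluripotency in the mouse: Nanog, Esrrb, Zfp42, Klf2, Klf4, Klf5, Tfcp2l1, Tbx3, Tcl1 and Tdh. They were taken by name, with earlier results of these data known, from tables of 53978 and 50969 genes. All 10 were listed in both tables and passed the filter on low values. They were followed in 22 of the 26 libraries of a mouse RNA-seq series on Tex10, a nuclear protein studied here in germ cell formation. The testis libraries were not used here.

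Naive pluripotency is the state of the preimplantation epiblast and of embryonic stem cells kept with LIF. Its transcription factors bind each other's regulatory regions and hold the network on, and the network is switched off as cells become epiblast-like cells (EpiLCs), which stand for the early postimplantation epiblast. When EpiLCs are induced to form primordial germ cell-like cells (PGCLCs), a model of the founders of the germ line, many of these genes are switched on again. Nanog is a homeobox factor, Esrrb an orphan nuclear receptor, and Klf2, Klf4 and Klf5 are Krüppel-like zinc finger factors. Tfcp2l1 is a grainyhead-family factor that acts downstream of LIF and STAT3, and Tbx3 is a T-box factor. Zfp42 (Rex1) is a zinc finger gene used as a reporter of the naive state, Tcl1 encodes a cofactor of AKT kinase, and Tdh encodes threonine dehydrogenase, a mitochondrial enzyme.

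The first experiment used cells of strain 129Sv/J in 5 groups of 2 libraries. These were untreated EpiLCs, then PGCLCs after 2 or 4 days of induction, given either dTAG13 at 500 nM or its solvent, DMSO. dTAG13 is a small molecule that directs a suitably tagged protein to the proteasome, and the series uses it to deplete Tex10. The labels give neither the tagged allele nor the time at which dTAG13 was added, and they do not say that replicates were separate cultures, so p-values measure the spread between these samples. The second experiment had 12 libraries, also of strain 129Sv/J and untreated. A line with an empty vector (1 library a stage) and 2 clones overexpressing Tex10 were sampled as EpiLCs and after 2, 4 and 6 days of induction. Each stage therefore had 1 control library, and the vector's promoter is not given.

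Values are CPM, reads relative to a library size that had been adjusted by the TMM method (TMM-scaled CPM). Libraries held between 5055362 and 8564563 reads, and 3 reads corresponded to 0.299 to 0.56 units. Fold changes are differences of log2(value + 1), which understate the change of low genes. Genes were called at a limma adjusted p below 0.05 (Benjamini-Hochberg method over 16605 genes in the first table and 15255 in the second). Tex10 mRNA lay between 94 and 113 in the day 2 libraries with and without dTAG13, at 105 and 110 in day 4 DMSO and at 72.8 and 76.8 in day 4 dTAG13. The depletion acts on the protein, which RNA does not show. In the clones Tex10 was between 330 and 654, and in the empty-vector line between 145 and 213. Day 2 and day 4 DMSO cells carried the germ cell markers of a list of 6 (Prdm1, Tfap2c, Dnd1, Nanos3, Dppa3 and Kit) at a summed level of 204 to 253, against 56 to 58.6 in EpiLCs. Prdm1, Tfap2c, Nanos3 and Kit were called higher than in EpiLCs on both days, beside 11.5% and 16.8% of all genes. Dnd1 and Dppa3 were called on neither day.

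In the GENCODE M21 annotation of mm10 all 10 are protein-coding genes. Those on the plus strand are Nanog (chr6:122707489-122714633), Esrrb (chr12:86361117-86521628), Klf2 (chr8:72319033-72321656), Klf5 (chr14:99298691-99315036), Tfcp2l1 (chr1:118627945-118685168) and Tbx3 (chr5:119670669-119684724). Those on the minus strand are Zfp42 (chr8:43295063-43306980), Klf4 (chr4:55527143-55532466), Tcl1 (chr12:105216750-105222793) and Tdh (chr14:63492347-63509092). The promoters of 7 of the 10 genes were matched by symbol in a RefSeq table on GRCm38.p6, the mm10 build. Klf5, Tbx3 and Tdh were not matched. The 250 bases before the start are shown for 4 genes on which the results turn. With dTAG13, Nanog, Zfp42 and Tfcp2l1 fell on both days, and Tcl1 had the lowest log2 fold change of the 10 at day 4. Capitals mark TTTGCAT, the core of the octamer bound by POU factors, and GGGNGTGG, a box of the kind bound by Krüppel-like factors, each searched on both strands.
Nanog: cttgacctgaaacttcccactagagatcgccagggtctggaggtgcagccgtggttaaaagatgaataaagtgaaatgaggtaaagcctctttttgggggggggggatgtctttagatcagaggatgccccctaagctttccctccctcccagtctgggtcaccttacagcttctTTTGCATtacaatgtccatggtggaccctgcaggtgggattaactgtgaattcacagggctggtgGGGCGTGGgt
Zfp42: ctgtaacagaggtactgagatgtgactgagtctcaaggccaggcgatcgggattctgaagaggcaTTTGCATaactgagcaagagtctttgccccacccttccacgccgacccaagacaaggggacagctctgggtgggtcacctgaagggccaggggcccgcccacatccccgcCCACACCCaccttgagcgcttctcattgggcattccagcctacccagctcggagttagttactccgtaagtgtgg
Tfcp2l1: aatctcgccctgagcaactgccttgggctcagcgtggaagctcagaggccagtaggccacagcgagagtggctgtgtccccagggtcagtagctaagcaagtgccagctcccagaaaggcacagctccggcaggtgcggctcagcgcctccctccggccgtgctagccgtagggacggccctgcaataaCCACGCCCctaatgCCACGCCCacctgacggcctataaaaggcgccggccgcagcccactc
Tcl1: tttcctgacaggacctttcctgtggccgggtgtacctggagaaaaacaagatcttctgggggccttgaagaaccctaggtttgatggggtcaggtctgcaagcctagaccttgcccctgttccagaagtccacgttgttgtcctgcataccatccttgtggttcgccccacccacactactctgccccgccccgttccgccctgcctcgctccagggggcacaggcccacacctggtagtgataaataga

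In the order shown, these windows are chr6:122707239-122707488 on the plus strand, chr8:43307010-43307259 on the minus strand, chr1:118627695-118627944 on the plus strand and chr12:105222738-105222987 on the minus strand. Each is printed 5′ to 3′ along its gene. In the Nanog window the octamer letters lie 75 to 69 bases before the start and a Krüppel-type box 10 to 3 bases before it. The Zfp42 window holds the octamer letters at 185 to 179 bases before the start and the box at 75 to 68. Tfcp2l1 has a pair of boxes, at 61 to 54 and 47 to 40 bases before the start, and the Tcl1 window has neither motif. Nor do the windows of Esrrb, Klf2 and Klf4, which also fell on both days with dTAG13. In all, 3 of the 9 windows of the 7 matched genes held the octamer letters and 4 the box. Nanog has overlapping windows that share its octamer site and a box, so these sites are counted more than once. By gene, the octamer letters were in Nanog and Zfp42 alone, and the box in Nanog, Zfp42 and Tfcp2l1 alone. Of all 32851 promoter windows of this length, 4.12% held the octamer letters and 15.9% the box. Another 3 motifs were searched on both strands in the 9 windows of these 7 genes. TATAAA, found in 12.4% of all windows, was in Tfcp2l1. TTCNNNGAA, a STAT-type palindrome found in 7.02%, was in an Esrrb window. TCAAGGTCA, the extended half-site of ESRRB, was in none of the 9 and in 0.387% of all. The matched motifs do not overlap one another. These are matches of letters in short windows and describe no binding.

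All 10 genes rose between EpiLCs and day 2 of PGCLC induction with DMSO. The log2 fold changes ran from 0.60 for Tdh to 2.77 for Tbx3 (2.74 for Tcl1, which stood above Tbx3 when no pseudocount was added), with a median of 1.55 over the 10 genes and of -0.03 over all genes. Of all genes tested, 11.5% were called higher and 14.7% lower in this comparison. On a list of 15 other genes of the naive network, 5 were higher and 3 lower, with a median of 0.09. Among markers of other cell types, Gata3, Krt7, Pax6 and Zscan4d were called higher and Pdgfrb lower, and their part was not tested. The EpiLC libraries had no DMSO, so the step also differs by the solvent. In a bulk sample, fewer cells of a type and less RNA per cell cannot be told apart.

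Nanog was at 104 and 105 in the EpiLC libraries, 438 and 427 at day 2 and 683 and 493 at day 4. The groups did not overlap, and the day 4 libraries differed from each other more than those of any other DMSO or EpiLC group. Its rise to day 2 was 2.04 ± 0.13 (standard error; limma adjusted p 2.13e-10), or 4.14-fold by the ratio of group means. Esrrb was at 179 and 182, then 465 and 427, then 682 and 657, a steady climb with a first step of 1.30 ± 0.10 (limma adjusted p 5.77e-09). Zfp42 was at 225 and 196, then 523 and 471, then 626 and 590. Most of its rise, 1.24 ± 0.11 (limma adjusted p 3.09e-08), was already there at day 2.

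The Krüppel-like factors rose by different amounts. Klf5 libraries read 136 and 135 in EpiLCs, 492 and 457 at day 2 and 553 and 549 at day 4, a first step of 1.80 ± 0.11 (limma adjusted p 4.51e-11). Klf4 was at 47.7 and 37.3, then 106 and 97.3, then 223 and 192, with first and second steps of 1.25 ± 0.13 and 1.02 ± 0.13. Klf2 started high, at 195 and 149, and reached 278 and 249 at day 2 and 298 and 260 at day 4. Its rise to day 2 was the second smallest of the 10, 0.62 ± 0.14 (limma adjusted p 0.00158), and lost its call without EpiLC replicate 2 (0.43) and with no variance trend.

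The largest relative rises were in genes that began low. Tbx3 libraries read 32.4 and 27.7 in EpiLCs, 210 and 210 at day 2 and 417 and 388 at day 4. Tcl1 was at 2.03 and 1.55, then 14.5 and 21.4, then 42 and 35.6. By the ratio of group means, with no pseudocount, the log2 rise to day 2 was 2.80 for Tbx3 and 3.33 for Tcl1, in each case with every day 2 library above every EpiLC library. Tfcp2l1 was at 76.7 and 83.4, then 304 and 366, then 613 and 562, a first step of 2.05 ± 0.11 (limma adjusted p 8.3e-12). Tdh was at 55.5 and 55.3, then 84.1 and 84.3, then 130 and 129, with replicates that nearly coincided.

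From day 2 to day 4 with DMSO, 6 of the 10 rose further: Klf4 by 1.02, Tcl1 by 1.09, Tbx3 by 0.94, Tfcp2l1 by 0.81, Tdh by 0.61 and Esrrb by 0.59. Over all genes 2.44% were called higher and 3.08% lower. Nanog differed by 0.42 ± 0.13 and was not called (limma adjusted p 0.0674), and its value was 0.19 without day 4 DMSO replicate 1 and 0.66 without replicate 2, when it was called. It was also called after quantile normalization (0.46, limma adjusted p 0.0433) and with the replicate block (limma adjusted p 0.0384). Zfp42 (0.29), Klf5 (0.22) and Klf2 (0.08) were not called either. Tcl1 lost its call without day 2 DMSO replicate 1 (0.82) or day 4 DMSO replicate 1 (0.98) and with no filter on low values, and Tcl1 and Esrrb lost theirs with no variance trend. From EpiLCs to day 4 all 10 were called higher, at a median of 2.14, with 16.8% of all genes higher and 18.1% lower. Tcl1 had the largest step over the whole course, 3.84 ± 0.27, followed by Tbx3 at 3.70 ± 0.11.

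Set per kilobase of annotated exon (all exons of a gene merged, GENCODE M21), the levels at day 4 with DMSO ran from Zfp42 at 314 to 333, through Nanog at 220 to 305 and Klf2 at 141 to 161, to Tdh at 49.2 to 49.6 and Tcl1 at 19.3 to 22.8. Esrrb (109 to 113) stood just above Klf5 (105.6 to 106.2). Klf4, Tfcp2l1 and Tbx3 overlapped between 58.6 and 73 units per kilobase, so their order is not resolved.

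**Figure D1:**
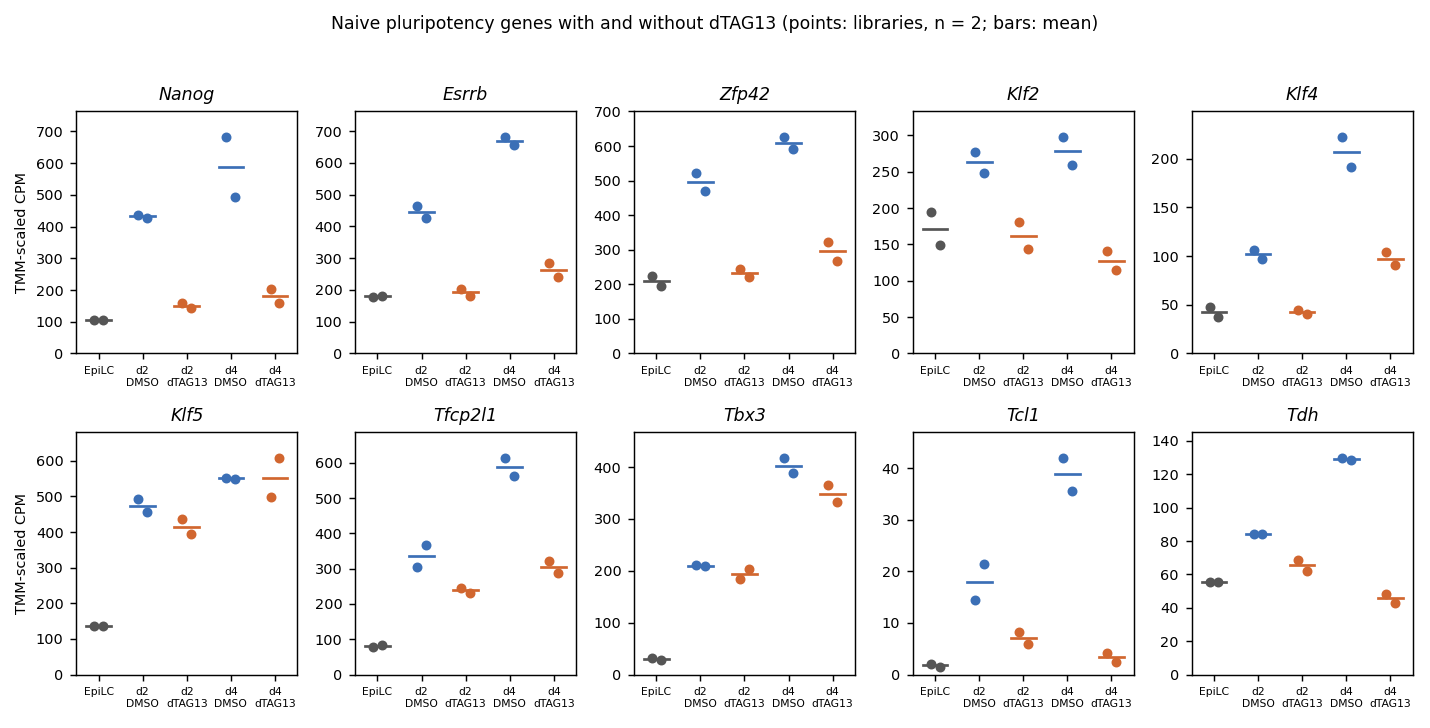
TMM-scaled CPM (vertical axes, from 0) of each of the 10 genes in EpiLCs and, for both days of induction (d2, d4), with either DMSO or dTAG13, where points are libraries (n = 2 a group) and bars their mean. Klf5 and Tbx3 libraries with dTAG13 sit close to those with DMSO, whereas Nanog at day 2 is at 159 and 143 against 438 and 427.

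With dTAG13, 8 of the 10 genes were lower than with DMSO at day 2, and the same 8 were lower at day 4. These were Nanog, Esrrb, Zfp42, Klf2, Klf4, Tfcp2l1, Tcl1 and Tdh. Klf5 and Tbx3 were called on neither day. Many genes changed with dTAG13: at day 2, 13.7% of all those tested were called higher and 19.9% lower, and at day 4, 15.8% and 26%. The median over the 10 was -0.90 at day 2 and -1.10 at day 4, against -0.09 and -0.13 over all genes. On a median-ratio scale, which brings the all-gene median to -0.01 and -0.03, the shares were 16.4% higher and 15.2% lower at day 2 and 19.1% and 19.8% at day 4.

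Nanog was at 159 and 143 at day 2 with dTAG13 and at 203 and 159 at day 4, below every DMSO library of the same day. Its log2 fold changes were -1.51 ± 0.13 at day 2 and -1.69 ± 0.13 at day 4 (limma adjusted p 1.7e-08 and 1.48e-09). Nanog lies on chromosome 6, where the 816 other genes tested had a median of -0.34 at day 2 and -0.24 at day 4, offset from the other autosomes by -0.27 and -0.12. Set against the median of its own chromosome, Nanog was at -1.18 and -1.45.

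Esrrb was at 205 and 182 at day 2 with dTAG13, against 465 and 427 with DMSO, and at 284 and 242 at day 4, against 682 and 657. Its log2 fold changes were -1.20 ± 0.10 and -1.35 ± 0.10. Zfp42 was at 246 and 220 at day 2, against 523 and 471, and at 324 and 267 at day 4, against 626 and 590. Its log2 fold changes were -1.09 ± 0.11 and -1.04 ± 0.11. For both genes the day 2 libraries with dTAG13 lay close to the EpiLC libraries. Zfp42 shares sequence with a processed pseudogene, Zfp42-ps1 on chromosome 15, which held 11.7 to 15.8% of the reads of the pair in this table. How reads matching both were assigned is not given in the sources used here. Summing the pair, an alternative added after seeing the data, gave -1.12 and -1.05 with dTAG13.

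Among the Krüppel-like factors Klf4 fell and Klf5 did not pass the test. Klf4 was at 44.3 and 40.9 at day 2 with dTAG13 and at 104 and 90.7 at day 4, and its log2 fold changes were -1.24 ± 0.13 and -1.08 ± 0.13. Klf2 was at 180 and 144, then 141 and 115, with log2 fold changes of -0.70 ± 0.14 (limma adjusted p 0.000401) and -1.12 ± 0.14 (limma adjusted p 8.9e-07). Klf5 was at 437 and 394 at day 2 and at 498 and 608 at day 4, where the groups overlapped. Its difference was -0.19 at day 2 (95% confidence interval -0.41 to 0.03) and 0.00 at day 4 (-0.22 to 0.22). On the median-ratio scale it was -0.10 and 0.12, so the direction at day 4 is not fixed by these data.

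Tbx3 was at 184 and 204 at day 2 with dTAG13, against 210 and 210, and at 365 and 332 at day 4, against 417 and 388. Both days had every dTAG13 library below every DMSO library, with differences of -0.12 (95% confidence interval -0.34 to 0.11) and -0.21 (-0.43 to 0.01). These intervals, like those of Klf5, leave out a fall of the size seen in Nanog, Esrrb, Zfp42 or Klf4. Its antisense neighbour Tbx3os1 overlaps the start of Tbx3 and was between 0.111 and 6.83 units in this table, and the labels do not say whether reads were counted by strand. Tfcp2l1 lay between, at 246 and 231 at day 2 against 304 and 366, and at 322 and 287 at day 4 against 613 and 562. Its log2 fold changes were -0.48 ± 0.11 (limma adjusted p 0.00162) and -0.95 ± 0.11 (limma adjusted p 4.35e-07). The day 2 call was lost without day 2 DMSO replicate 2, at -0.35 (limma adjusted p 0.0553).

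Tcl1 and Tdh were the genes whose response was called different between the days. Tcl1 was at 8.24 and 5.89 at day 2 with dTAG13 and at 4.25 and 2.38 at day 4, where DMSO libraries were at 42 and 35.6. The log2 fold change was -1.22 ± 0.27 at day 2 (limma adjusted p 0.00121) and -3.23 ± 0.27 at day 4 (limma adjusted p 3.22e-09). At day 4 it ranked 5 from the lowest of 16605 genes by log2 fold change. Tdh was at 68.5 and 62.2 at day 2 and at 48.4 and 43.1 at day 4, against 130 and 129. The log2 fold change was -0.36 ± 0.11 at day 2 (limma adjusted p 0.0175) and -1.48 ± 0.11 at day 4 (limma adjusted p 1.04e-09). The day 2 call of Tdh is the least secure of the 8: it was lost with no variance trend, on the median-ratio scale (-0.27), after quantile normalization (-0.27), in edgeR (-0.27) and in DESeq2 (-0.26), and without day 2 DMSO replicate 1 (-0.363), day 2 DMSO replicate 2 (-0.361) or day 2 dTAG13 replicate 2 (-0.29).

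The effect of dTAG13 at day 4 minus that at day 2 was -2.01 ± 0.38 for Tcl1 (limma adjusted p 0.00828) and -1.12 ± 0.16 for Tdh (limma adjusted p 0.00117). Of all genes, 0.482% were called lower and 0.771% higher in this comparison, and the other 8 genes were not called. Among these, Tfcp2l1 (-0.46) and Klf2 (-0.42) had an unadjusted limma p of 0.00688 and 0.0415. After quantile normalization 3 of the 10 were called lower. Without the mean-variance trend limma called 0 genes here, 2 of the 10 genes having an unadjusted p under 0.05, while edgeR and DESeq2 each called both. Tcl1 lost its call without day 2 DMSO replicate 1 (-1.74), day 2 dTAG13 replicate 1 (-1.80) or day 4 dTAG13 replicate 2 (-1.69), and with no filter on low values (limma adjusted p 0.133).

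**Figure D2:**
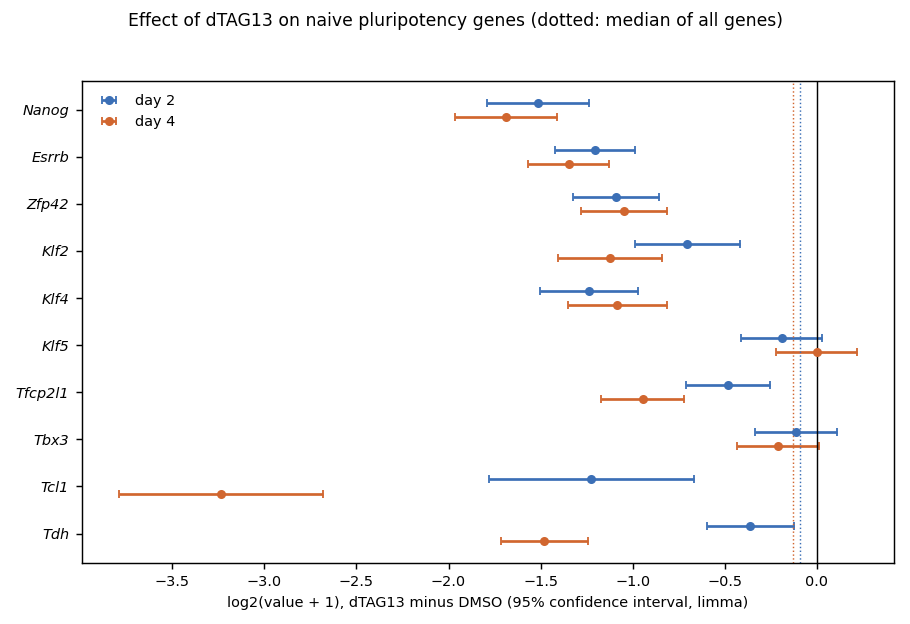
Difference of log2(value + 1) between dTAG13 and DMSO libraries (horizontal axis) for each gene at day 2 and day 4, where bars are 95% confidence intervals from limma and dotted lines the medians of all genes. The intervals of Klf5 and Tbx3 cross 0 on both days, and Tcl1 and Tdh lie further left at day 4 (-3.23 and -1.48) than at day 2 (-1.22 and -0.36).

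The course of dTAG13 cells can be read beside that of DMSO cells, with which it shares the EpiLC libraries. From EpiLCs to day 2 with dTAG13, 5 of the 10 rose, with 20.3% of all genes higher and 29.7% lower. Tbx3 rose by 2.65, against 2.77 with DMSO, and Klf5 by 1.61, against 1.80. Tfcp2l1 rose by 1.56, against 2.05, Tcl1 by 1.52, against 2.74, and Nanog by 0.53, against 2.04. The values of the other 5 were 0.23 for Tdh, 0.15 for Zfp42, 0.10 for Esrrb, 0.01 for Klf4 and -0.08 for Klf2. The counts depend on the scale here: after quantile normalization 8 of the 10 were called higher, Esrrb, Zfp42 and Tdh being added, and Tdh was also called on the median-ratio scale (0.34), in edgeR (0.36) and in DESeq2 (0.36). In edgeR 23.8% of all genes were higher and 23.4% lower.

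From day 2 to day 4 with dTAG13, Klf4 rose by 1.17, Tbx3 by 0.84, Esrrb by 0.44 and Klf5 by 0.41, with 3.44% of all genes higher and 4.22% lower. Klf4 thus climbed in dTAG13 cells from a level near that of EpiLCs to one near that of day 2 DMSO cells. Tcl1 fell by 0.92 (limma adjusted p 0.0382) and Tdh fell by 0.51 (limma adjusted p 0.00799), and both had risen over these days with DMSO. Without the mean-variance trend Klf4 and Tbx3 kept their calls and the other 4 genes lost theirs. With no filter on low values Tcl1, Esrrb and Klf5 lost their calls, as did Klf5 after quantile normalization and Tcl1 in edgeR (adjusted p 0.059) and with the 2 groups alone (limma adjusted p 0.0585). Tcl1 lost its call without day 2 dTAG13 replicate 1 (-0.71), day 2 dTAG13 replicate 2 (-1.13) or day 4 dTAG13 replicate 2 (-0.60), and Tdh without the first (-0.44) or the last of these (-0.42). Esrrb lost its call without day 2 dTAG13 replicate 2 (0.36) or day 4 dTAG13 replicate 1 (0.33), and Klf5 without day 2 dTAG13 replicate 1 (0.48) or 2 (0.33) or day 4 dTAG13 replicate 2 (0.26).

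Markers of other cell types moved with dTAG13, and their part in these results was not tested. The summed level of 6 trophoblast markers was 16 to 21.6 with DMSO and 52.4 to 64.9 with dTAG13 at day 2, and 7.3 to 9.56 against 39 to 65.8 at day 4. The sum of 6 mesoderm markers was 5.53 to 8.55 against 24.9 to 33 at day 2 and 2.79 to 4.28 against 17.9 to 25.7 at day 4. Hand1, which is also in the trophoblast list, was the 1 mesoderm marker of the 6 that passed the filter on low values, and its log2 fold changes were 2.06 and 2.60. The sum of 6 endoderm markers was 3.52 to 4.61 against 7.93 to 8.43 at day 2 and 6.07 to 6.34 against 10.8 to 14.5 at day 4. That of 5 markers of the 2-cell-like state was 11.7 to 14.4 with dTAG13 at day 2, against a mean of 3.01 in the DMSO libraries (n = 2), and 0.88 to 1.75 against 0.299 to 0.322 at day 4. Zscan4d was the 1 of the 5 that passed the filter, with differences of 1.52 and 0.86. It passed through the day 2 dTAG13 libraries, where it was high, so its calls are not used as support. At day 4 the sum of all 5 corresponded to 3 reads in each DMSO library. Of 5 fibroblast markers, summed at 3.40 to 3.53 against 5.59 to 8.70 at day 2 and 3.11 to 4.18 against 5.40 to 5.43 at day 4, 3 were tested and 1 was called. This was Col1a1, higher on both days (1.04 and 1.39), while Thy1 (0.73 and -0.36) and Pdgfrb (0.23 and -0.47) were not called, and Postn was at 0 in every group. Neural markers went the other way: their sum of 5 was 13.5 to 16.1 against 8.03 to 10.1 at day 2 and 19.2 to 20.4 against 13.2 to 13.3 at day 4. Of the 2 tested, Pax6 was lower on both days (-1.13 and -1.39) and Sox1 at day 2 (-0.66). The germ cell sum overlapped, at 204 to 220 against 203 to 212 at day 2 and 230 to 253 against 242 to 253 at day 4, but 3 of its 6 members were called on both days, in opposite directions. Tfap2c was higher (0.69 and 1.78), and Prdm1 (-1.13 and -1.65) and Kit (-1.82 and -2.14) were lower.

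Other genes of the naive network, from a list of 15 that holds none of the 10, also tended down. With dTAG13, 11 of the 15 were lower and 2 higher at day 2, and 9 were lower and 2 higher at day 4, with medians of -0.60 on both days. The shares of all genes were 19.9% lower and 13.7% higher at day 2, and 26% and 15.8% at day 4. Prdm14, a zinc finger regulator needed for germ cell fate, fell, with log2 fold changes of -1.89 at day 2 and -2.08 at day 4, as did the orphan receptor gene Nr0b1 (-1.46 and -1.54). The homeobox gene Gbx2 was at -1.53 and -3.19, and Pou5f1 (Oct4) at -0.73 and -0.76. Nodal (0.76 and 0.81) and Pecam1 (0.39 and 0.65) rose.

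On a list of 10 genes of LIF signalling, 4 were lower and 2 higher on both days, beside 19.9% and 26% of all genes lower and 13.7% and 15.8% higher, and the list medians were -0.15 and 0.07. The receptor subunits fell, Lifr with log2 fold changes of -1.05 and -0.64 and Il6st (gp130) with -0.77 and -0.70, as did the kinase genes Pim1 (-1.07 and -1.60) and Pim3 (-0.70 and -0.75), known targets of STAT3. Socs3, another known target (-0.24 and 0.17), and Stat3 itself (0.05 and 0.10) were not called. The ligand gene Lif rose by 1.22 and 2.05, and Jak2 by 0.65 and 0.73. Of 10 genes known for dismantling the naive state, 1 was higher and 2 lower at day 2, and 3 higher and 2 lower at day 4. Of 10 formative epiblast genes, all 10 fell between EpiLCs and day 2 both with DMSO (median -3.04, beside 14.7% of all genes lower) and with dTAG13 (median -2.99, beside 29.7%). Between dTAG13 and DMSO, 2 of these were higher and 3 lower at day 2, and 4 higher and 2 lower at day 4. Of 8 targets of ERK signalling, 1 was higher and 2 lower at day 2, and 3 higher and 2 lower at day 4. With lists of 8 to 10 genes, these counts between dTAG13 and DMSO are small. They were not tested against the all-gene shares given above.

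Over the 10 libraries of the dTAG13 experiment, Pearson's r on log2(value + 1) between pairs of the 10 genes ran from 0.19 for Klf2 and Klf5 to 0.99 for Esrrb and Zfp42. Klf5 and Tbx3 varied together at 0.98. The libraries fall into 5 groups, so these values restate the group means above. Among 9112 genes outside the 10 with a mean of at least 10 in both tables, the 5 most like Nanog were Agtrap (r = 0.99), Lap3 (0.98), Nynrin (0.98), Prdm14 (0.98) and Tubb3 (0.98). Over the 12 libraries of the second experiment, the r of these genes with Nanog was 0.92, 0.87, 0.93, 0.99 and 0.73.

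In the lines carrying vectors, which were prepared with another library kit and normalized apart from the first table, all 10 genes rose from EpiLCs to day 2. The fit used all 3 lines, with line as a covariate. The median was 2.86, with 24.1% of all genes higher and 22.1% lower. In the empty-vector line Klf4 went from 5.86 in EpiLCs to 128 at day 2, 239 at day 4 and 394 at day 6, and its first step over the 3 lines was 4.33 ± 0.09. Tbx3 went from 11 to 175, 381 and 463 in that line, with a first step of 4.27 ± 0.10. Klf2 went from 67 to 439, 551 and 638. Tdh had the smallest first step again, 0.60 ± 0.09.

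From day 2 to day 4 in these lines 6 genes rose, Tbx3 by 1.15, Klf4 by 0.89, Tfcp2l1 by 0.70, Tcl1 by 0.57, Klf5 by 0.53 and Esrrb by 0.42, with 11.1% of all genes higher and 11.9% lower. Of these, 5 were also called over the same days with DMSO, Klf5 being the exception. Markers of other cell types moved as well, and their part was not tested. Called higher were T, Hand1, Gata4, Gata6, Cubn, Col1a1 and Pdgfrb, and called lower were Zscan4c, Zscan4d, Usp17lc, Pax6 and Thy1. Tcl1 lost its call without clone 1 at day 4 (0.44). Nanog was at -0.23 and not called (limma adjusted p 0.109), against 0.42 over these days with DMSO. It was called lower with the clones only (-0.31) and without the empty-vector library of EpiLCs (-0.23) or of day 2 (-0.39). From day 4 to day 6 Klf4 rose by 0.64 ± 0.09 (limma adjusted p 1.97e-05), while Tfcp2l1 (-0.28) and Tdh (-0.33) fell, with 3.49% of all genes higher and 3.38% lower. The calls of Tfcp2l1 and Tdh were lost with no variance trend, with no filter on low values and with the line left out. Without clone 1 at day 4, or either clone at day 6, 0 of the 10 were called lower by limma, and without clone 2 at day 4, or the empty-vector library at day 4 or at day 6, 1 was. At an unadjusted p the 2 genes stayed below 0.05 without the trend, and edgeR and DESeq2 each called 2.

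**Figure D3:**
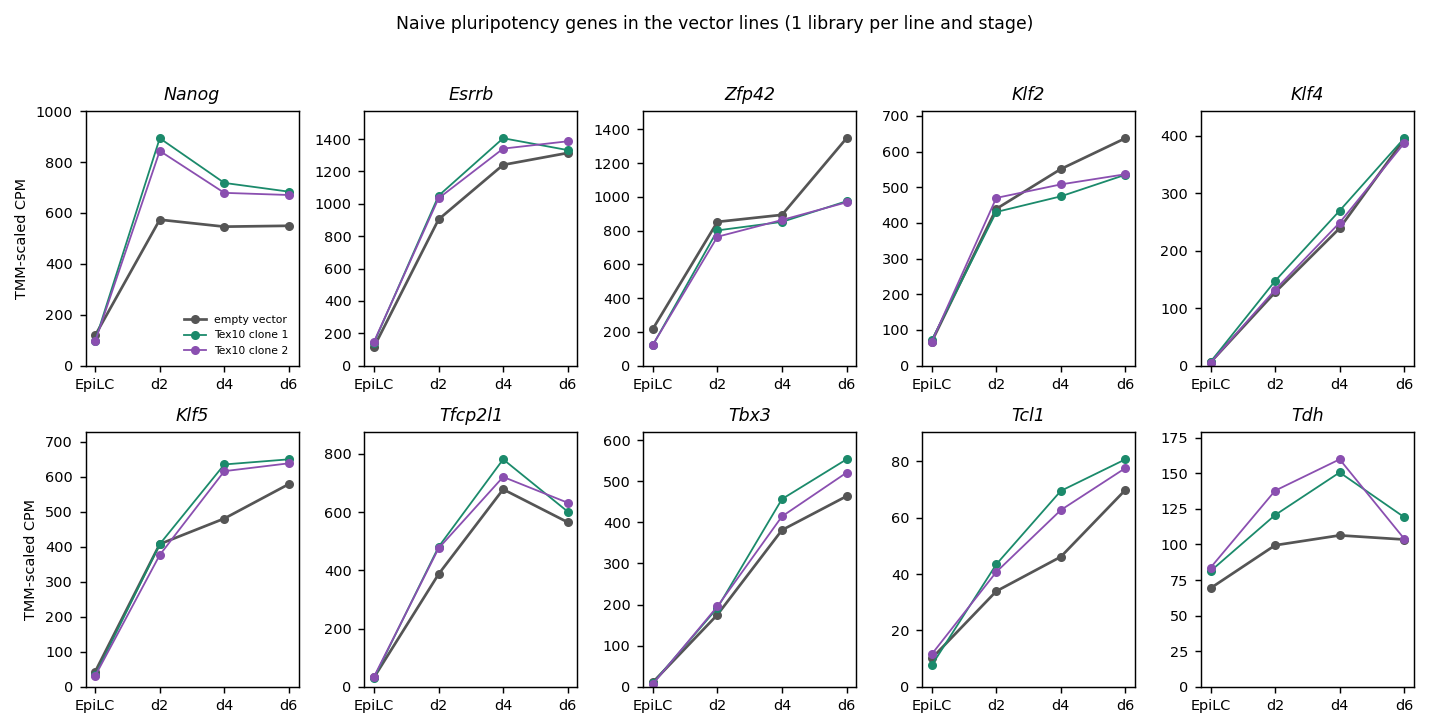
TMM-scaled CPM (vertical axes, from 0) of each gene in the empty-vector line and both Tex10 clones as EpiLCs and at day 2, 4 and 6, with 1 library per point. Klf4 climbs at every step, and Nanog in the clones is highest at day 2 (894 and 844).

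Effects of Tex10 overexpression on the 10 genes were small. Over all stages, with stage as covariate and stages standing in for replicates, Nanog, Esrrb and Tdh were higher and Zfp42 lower, with 4.54% of all genes higher and 4.22% lower. This fit had no term for line, and every clone library was set against 1 control line. Its p-values, and counts of the 8 clone libraries, therefore cannot tell a trait of that line from Tex10 overexpression. Nanog was at 119 in empty-vector EpiLCs against 98.3 and 95.6 in the clones. At day 2 it was at 574 against 894 and 844, at day 4 at 546 against 718 and 679, and at day 6 at 550 against 684 and 671. Both clones were thus below the control as EpiLCs and above it on each later day. Its log2 fold change across the 4 stages was 0.24 ± 0.08 (limma adjusted p 0.0449, higher in 6 of 8 libraries), a call close to the threshold and lost in 9 of 12 fits without 1 library. Leaving out the EpiLC empty-vector library gave 0.42, and leaving out the day 2 empty-vector library gave 0.12.

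Esrrb was above the control in 8 of 8 clone libraries, at 143 and 148 against 116 in EpiLCs, 1050 and 1034 against 904 at day 2, 1405 and 1341 against 1241 at day 4 and 1332 and 1386 against 1314 at day 6. Its log2 fold change was 0.18 ± 0.05 (limma adjusted p 0.0182), a call lost without the empty-vector library of EpiLCs (0.13) or of day 2 (0.17) and after quantile normalization (0.10). Tdh was also higher in 8 of 8, by 0.32 ± 0.07 (limma adjusted p 0.00271). It was at 81.3 and 83.7 against 69.3 in EpiLCs, 121 and 138 against 99.4 at day 2 and 151 and 160 against 106 at day 4. At day 6 the clones were at 119 and 104 against 103.

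Zfp42 was below the control in 8 of 8, with a log2 fold change of -0.37 ± 0.07 (limma adjusted p 0.00105), or -0.22 without the EpiLC empty-vector library, when it was still called. It was at 122 and 124 against 218 in EpiLCs, 801 and 764 against 852 at day 2, 852 and 863 against 893 at day 4 and 974 and 968 against 1347 at day 6. The gap was widest as EpiLCs and at day 6. Summed with Zfp42-ps1, which held 23.1 to 27.4% of the pair's reads in this table, the difference was -0.37. The 20 tested genes nearest to Zfp42 on chromosome 8 had a median of -0.50 in the same comparison, against -0.05 over the 821 other genes tested on that chromosome, and the part of this in the result was not tested. The other 6 genes were not called, among them Tcl1 at 0.22, Tfcp2l1 at 0.15 and Klf2 at -0.09, though by limma Tcl1 and Tfcp2l1 were called without the EpiLC empty-vector library (0.33 and 0.19) or the EpiLC library of clone 1 (0.30 and 0.17). Tcl1 was at 0.13 without the day 4 empty-vector library, and Tfcp2l1 at 0.09 without that of day 2. With no filter on low values Zfp42 (limma adjusted p 0.0502), Esrrb (0.0777) and Nanog (0.253) lost their calls. Without the mean-variance trend limma called 0 of the 10 in this comparison, 3 having an unadjusted p under 0.05, while edgeR and DESeq2 each called 3 higher and 1 lower, Tfcp2l1 taking the place of Nanog in DESeq2. With clone 2 alone limma called 0 higher, 5 having an unadjusted p under 0.05.

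By the spread between the clones alone, 4 genes had a difference from the control called higher over the PGCLC days than in EpiLCs. The control had a single library at each stage and was assumed to vary like the clones. Its own error was not measured, so the p-values cannot show that the difference changed. Over all genes 1.02% were called higher and 0.931% lower. Nanog had 0.71 ± 0.08 (limma adjusted p 2.75e-06), Tbx3 0.62 ± 0.12 (limma adjusted p 0.00335), Zfp42 0.60 ± 0.08 (limma adjusted p 8.98e-06) and Klf5 0.57 ± 0.09 (limma adjusted p 0.000277). In EpiLCs Klf5 was at 43.3 in the control against 33.3 and 31.2 in the clones, and at day 4 at 481 against 636 and 616. For Tbx3 the EpiLC control read 11 against 8.8 and 7.01, and the day 4 control 381 against 457 and 414. All 4 comparisons rest on the single EpiLC empty-vector library, and the spread comes from the pair of clones at each stage. Without the mean-variance trend limma called 0 genes in this comparison, 4 of the 10 having an unadjusted p under 0.05, while edgeR and DESeq2 each called 3 of the 10 higher, Tbx3 being left out. Tbx3 was also not called without the EpiLC library of clone 2 (0.47) and with no filter on low values (limma adjusted p 0.111). The EpiLC empty-vector library had a summed level of the 5 markers of the 2-cell-like state of 195, against 98.8 and 100.1 in the clones, and its part in the result was not tested.

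By stage, both clones were above the control for 2 of the 10 genes as EpiLCs, 7 at day 2, 8 at day 4 and 7 at day 6, and both below it for 4, 2, 2 and 2. Among all genes between 36.2% and 38.7% were above and between 35.5% and 37.2% below at each stage. These counts share 1 control library per stage and were not tested. At day 4 the control also had higher sums of trophoblast markers (23, against 5.6 and 7.69) and mesoderm markers (26.5, against 4.85 and 5.85). Both lists hold Hand1. At day 6 these sums were 15.2 against 6.51 and 7.86, and 11.4 against 3.42 and 4.08. At day 2 its neural sum was 36.6 against 13.6 and 15.6, and its 2-cell-like sum 46.7 against 33.8 and 34. Its germ cell sum was lower at day 2 (276, against 321 and 334) and higher at day 4 (297, against 223 and 232). Its endoderm sum was lower at day 4 (12.9, against 14.7 and 17.7) and day 6 (10.2, against 13.5 and 15.5). The part of these markers was not tested.

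**Figure D4:**
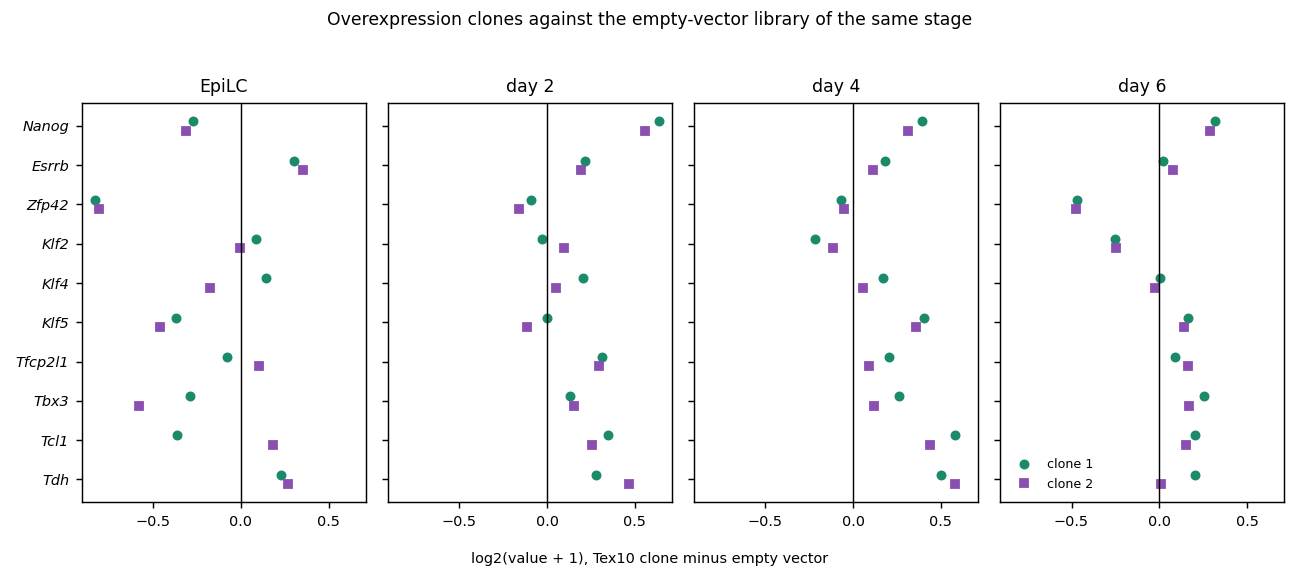
Difference of log2(value + 1) between each Tex10 clone and the empty-vector library of the same stage (horizontal axis), for the 10 genes at 4 stages, with 1 library per point and no error. Zfp42 lies left of 0 and Esrrb and Tdh right of 0 at every stage, and Nanog lies left of 0 as EpiLCs and right of it later.

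In the authors' deposited tables of their own comparisons, 8 of the 10 genes had an FDR below 0.05 with a higher value at day 2 with DMSO than in EpiLCs, Klf2 (FDR 0.126) and Tdh (0.129) being the exceptions. Of the genes tested here, 6.44% passed that FDR in this direction. With dTAG13, 6 were lower at day 2, beside 7.97% of those genes, and 8 at day 4, beside 13.8%. Tfcp2l1 (FDR 0.485) and Tdh (0.621) at day 2 are the difference from the counts above, and Klf5 and Tbx3 were past the threshold on neither day. For the clones the authors' deposited table has 1 of the 10 higher and 1 lower as EpiLCs, beside 0.865% and 1.39% of the genes tested here. It has 3 higher at day 2 (2.33%), 4 higher at day 4 (2.73%), and 1 higher and 1 lower at day 6 (0.957% and 1.05%).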

How the data were processed

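The authors deposited values scaled by TMM, here called TMM-scaled CPM, a signal per gene and library, per the file headers. Reads were recovered by dividing the deposited values of a library by 1 step and rounding. Among values of lower read number, 100% were whole multiples of the step (within 0.02) in every library. Larger values were rounded without this check. In day 4 DMSO replicate 2 the step, 0.0996, lies too near 0.1 for an automatic test. The submitters' processing notes name Bowtie2 2.3.4.3, SAMtools 1.9, HTSeq 0.11.2, edgeR 3.26.8 and mm10. The labels' protocols give a NuGEN Ovation kit for the first experiment and a Tecan Universal Plus kit for the second. The authors' deposited log2 fold changes and p-values were only set beside the results.

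Genes with a mean of at least 1 were tested with limma 3.58.1 in R 4.3.3 (moderated variances with a mean-variance trend) on log2(value + 1), each fit using all libraries of its table, except that the change of the overexpression effect from EpiLCs to PGCLC days used 8 group means. Adjusted p-values are Benjamini-Hochberg values over all genes of a comparison. edgeR 4.0.16 and DESeq2 1.42.0 on recovered reads were alternatives. Tested on simulated data for the day 2 dTAG13 comparison (16464 genes), the test recovered 94% of genes changed by 1 and 25% of genes changed by 0.5 on the log2 scale. For overexpression over all stages (15150 genes) these were 99% and 88%. In each simulation 100 genes were changed by 1 and 100 by 0.5, and there were 12 and 10 false calls. The data had 5577 and 1337 genes called in these comparisons, and the simulated spread was set in advance. The recovery rates therefore need not hold for the data. Intervals and the floor of 3 reads cover counting error only where stated, since reads carried no molecular identifiers. Named genes were the 10 members, the 5 most like Nanog, and members of fixed lists; all were chosen with earlier results of these data known.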

Additional observations from a re-analysis of the deposited data

Results flagged for a closer look

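For 6 results a difference between groups was flagged, and those of Tcl1 and Tdh are given with limma's adjusted p over all genes. The dTAG13 effect at day 4 minus that at day 2 was -2.01 for Tcl1 (adjusted p 0.00828) and -1.12 for Tdh (adjusted p 0.00117). The overexpression effect over the PGCLC days minus that in EpiLCs was 0.71 for Nanog, 0.60 for Zfp42, 0.57 for Klf5 and 0.62 for Tbx3. The last 4 share 1 EpiLC empty-vector library, and their limma test assumes that the control varies like the clones, so only effect sizes are given.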

How the results depend on the processing

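For the 10 genes, 99 reported values had 1942 alternative values, where 1 alternative fit gives values for up to 10 genes. Of these values, 1815 kept direction and side of the threshold, 94 lost and 19 gained a call, and 14 turned direction. With dTAG13, 9 of 191 changed at day 2 and 5 of 191 at day 4; from EpiLCs with DMSO, 2 of 191 changed to day 2 and 0 of 201 to day 4. Where not said, the cause was not tested. Groups of 2, and 1 control library per stage, limit precision, and Tcl1 in EpiLCs rests on 16 and 14 reads.

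Klf5 at day 4 with dTAG13 was 0.116 with median-ratio scaling, 0.130 in edgeR and 0.136 in DESeq2, and between -0.145 and 0.142 leaving out 1 library. Klf2 from EpiLCs to day 2 with dTAG13 was 0.0233 with median-ratio scaling, 0.198 with quantile normalization, 0.0379 in edgeR and 0.0367 in DESeq2, and between -0.275 and 0.114 leaving out 1 library. Klf4 there was between -0.159 and 0.185, and Klf2 from day 2 to day 4 with DMSO between -0.0189 and 0.180.

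With no filter on low values, 341 genes were called from day 2 to day 4 with DMSO (916 as reported), 832 with dTAG13 (1271), 16 for the change in dTAG13 effect (208), 476 from day 4 to day 6 (1049), 642 for overexpression (1337) and 1443 for its change from EpiLCs (297). Of the 10 genes it called 1 lower in the change of effect, 2 higher and 1 lower from day 2 to day 4 with dTAG13, 0 lower from day 4 to day 6, and 1 higher and 0 lower for overexpression. With no variance trend the counts of all genes were 445, 613, 0, 276, 431 and 0, and 2238 from day 2 to day 4 in the vector lines (3509). Of the 10 it called 0 lower in the change of effect, 2 higher and 0 lower from day 2 to day 4 with dTAG13, 0 lower from day 4 to day 6, 0 higher and 0 lower for overexpression and 0 higher for its change. With only the groups compared 551 genes were called from day 2 to day 4 with DMSO. With dTAG13 this setting called 1756 genes (1271), and 6 of the 10 higher (4) and 2 lower (2).

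Quantile normalization called 8 of the 10 higher from EpiLCs to day 2 with dTAG13 (5 as reported), 2 higher from day 4 to day 6 (1) and 1 higher for overexpression (3). It called 3 lower in the change of dTAG13 effect (2). From day 4 to day 6 median-ratio scaling called 2, edgeR 3, DESeq2 2 and the clones alone 3 higher, and the clones alone called 1 (Nanog) lower from day 2 to day 4. edgeR called 1 lower from day 2 to day 4 with dTAG13, and DESeq2 138 genes for the change of the overexpression effect. For overexpression, PGCLC days only gave 5 higher, clone 1 alone 1 higher and 413 genes, and clone 2 alone 0 higher and 425 genes.

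Leaving out 1 library gave between 2496 and 4858 genes from EpiLCs to day 2 with DMSO, 3797 and 5739 to day 4, 425 and 1104 from day 2 to day 4, 3603 and 6131 for dTAG13 at day 2, 44 and 366 for its change and 525 and 1667 from day 2 to day 4 with dTAG13. It gave between 2232 and 3938 from day 2 to day 4 in the vector lines, 411 and 1365 from day 4 to day 6, 751 and 1625 for overexpression and 96 and 377 for its change. Of the 10 genes, between 1 and 2 were called lower in the change of dTAG13 effect, and between 2 and 6 higher and 0 and 2 lower from day 2 to day 4 with dTAG13. In the vector lines between 0 and 1 were lower from day 2 to day 4, and 1 and 3 higher and 0 and 2 lower from day 4 to day 6. Between 1 and 5 were higher for overexpression.

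Same-numbered replicates of the dTAG13 experiment shared little deviation between groups (correlations between -0.128 and 0.118). These correlations include counting error, so they cannot show whether replicate numbers pair the samples. The replicate block gave 4247 genes from EpiLCs to day 2, 902 from day 2 to day 4, 5735 from EpiLCs to day 4, 5507 for dTAG13 at day 2, 6894 at day 4, 201 for its change, 8229 from EpiLCs to day 2 with dTAG13 and 1213 from day 2 to day 4. Nanog gained a call from day 2 to day 4 with DMSO. Over these days with dTAG13 the replicate block called 5 of the 10 higher and 3 lower (4 and 2 as reported). The crossed pairing from EpiLCs to day 4, added after seeing the data, gave 5876. With no replicate block (line left out), also added, 498 genes and 0 of the 10 lower were called from day 4 to day 6.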
